A study of Mus musculus with 75 samples.

Results

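Epididymal white fat (eWAT) of mice with a C3H/HeN nuclear genome was compared between animals carrying C57BL/6J mitochondrial DNA (C3Hn:C57mt, 4 libraries) and wild-type animals carrying their own C3H/HeN mitochondrial DNA (C3H wt, 3 libraries). All 7 animals were kept on chow and were sampled at 12 to 13 weeks of age. These are 7 of the 75 RNA-seq libraries of the series, chosen by the labels for genotype, diet and tissue. Other eWAT libraries were used for comparison. They were C3Hn:C57mt (3) and C3H wt (4) on a high-fat diet (HFD) given from week 6. On chow they were C57 wt (4) and C57n:C3Hmt (4), both with a C57BL/6J nucleus. Inguinal fat (iWAT) and gastrocnemius muscle of the same genotypes on chow were set beside them. The eWAT libraries of C57 wt (4) and C57n:C3Hmt (3) on HFD entered the joint fit and the medians of all 29 eWAT libraries. The 7 libraries carry 7 different animal numbers in their titles, and the replicate numbers used here only name them.

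In mitochondrial-nuclear exchange mice, the nucleus of one strain is combined with the cytoplasm, and so the maternally inherited mitochondrial DNA (mtDNA), of another. The mtDNA encodes a small set of subunits of respiratory complexes I, III, IV and V together with the ribosomal and transfer RNAs of the mitochondrion; all other mitochondrial proteins, including the rest of the respiratory chain and the mitochondrial ribosome, come from nuclear genes. White adipocytes use mitochondria for fatty acid oxidation, for the citrate that feeds lipogenesis and for the ATP that secretion of adipokines requires. The epididymal fat pad is attached to the epididymis, a duct lined by secretory epithelium and wrapped in smooth muscle, so a dissected pad can carry RNA of both.

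Total expected counts were 19.3 to 23.8 M in C3Hn:C57mt libraries and 22.9 to 28.8 M in C3H wt libraries. The titles of all 7 libraries share their leading code and a later letter-and-digit code, and the labels do not say what these stand for. The mismatch rate against the reference genome was 0.00456 to 0.00472 in C3Hn:C57mt and 0.00451 to 0.00485 in C3H wt libraries, against 0.00285 to 0.00331 in the 8 chow eWAT libraries with a C57BL/6J nucleus. Gene counts cannot check which mtDNA an animal carried. Duplicate reads made up 33.0% to 38.1% in C3Hn:C57mt and 38.9% to 41.3% in C3H wt libraries, and the 2 ranges do not overlap; the part of this in the results was not tested.

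Epithelial RNA was examined before any comparison. Tacstd1, listed under its older symbol and now called Epcam, encodes an adhesion molecule of epithelial cells, and Krt18 encodes a keratin of simple epithelia. Tacstd1 stood at 1.63, 312, 0.638 and 46.3 counts per M counts (CPM) in C3Hn:C57mt replicates 1 to 4, against 0.302, 0.912 and 1.53 CPM in C3H wt replicates 1 to 3. Krt18 stood at 3.21, 558, 17.5 and 48.3 CPM in the C3Hn:C57mt libraries, against 1.90, 20.7 and 16.5 CPM in the C3H wt libraries. Replicates 2 and 4 of C3Hn:C57mt were thus more than 5 times above the median of all 29 eWAT libraries for both genes (medians 0.733 and 6.25 CPM), which no C3H wt chow library was. In the whole of eWAT 6 libraries met this mark, the others being C57n:C3Hmt replicates 1 and 4 and C57 wt replicate 3 on chow and C3H wt replicate 1 on HFD.

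The 2 marked C3Hn:C57mt libraries held different non-adipose RNA. Crisp1, a secreted protein of the epididymis, stood at 1842 and 1646 CPM in replicates 2 and 4 and at 0.376 and 0.851 CPM in replicates 1 and 3, against 0.418 to 0.818 CPM in C3H wt libraries. Gpx5, the epididymal glutathione peroxidase, reached 876 CPM in replicate 4 and stood at 0.159 to 0.250 CPM in the other 3 C3Hn:C57mt libraries, against 0.0431 to 0.152 CPM in C3H wt libraries. Replicate 2 in contrast held smooth muscle RNA: Des, encoding desmin, stood at 742 CPM there and at 30.6 to 36.6 CPM in the other C3Hn:C57mt libraries, against 30.2 to 39.6 CPM in C3H wt libraries. Mylk, encoding myosin light chain kinase, stood at 1397 CPM in replicate 2 and at 76.2 to 97.0 CPM in the other C3Hn:C57mt libraries, against 81.3 to 97.4 CPM in C3H wt libraries. Tgm4, a transglutaminase of the male accessory glands in rodents, and Actg2, smooth muscle gamma-actin, were looked up after their values were seen and stood at 3059 and 937 CPM in replicate 2, with at most 0.585 and 8.36 CPM in the other C3Hn:C57mt libraries, against at most 0.716 and 4.22 CPM in C3H wt libraries.

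**Figure D1:**
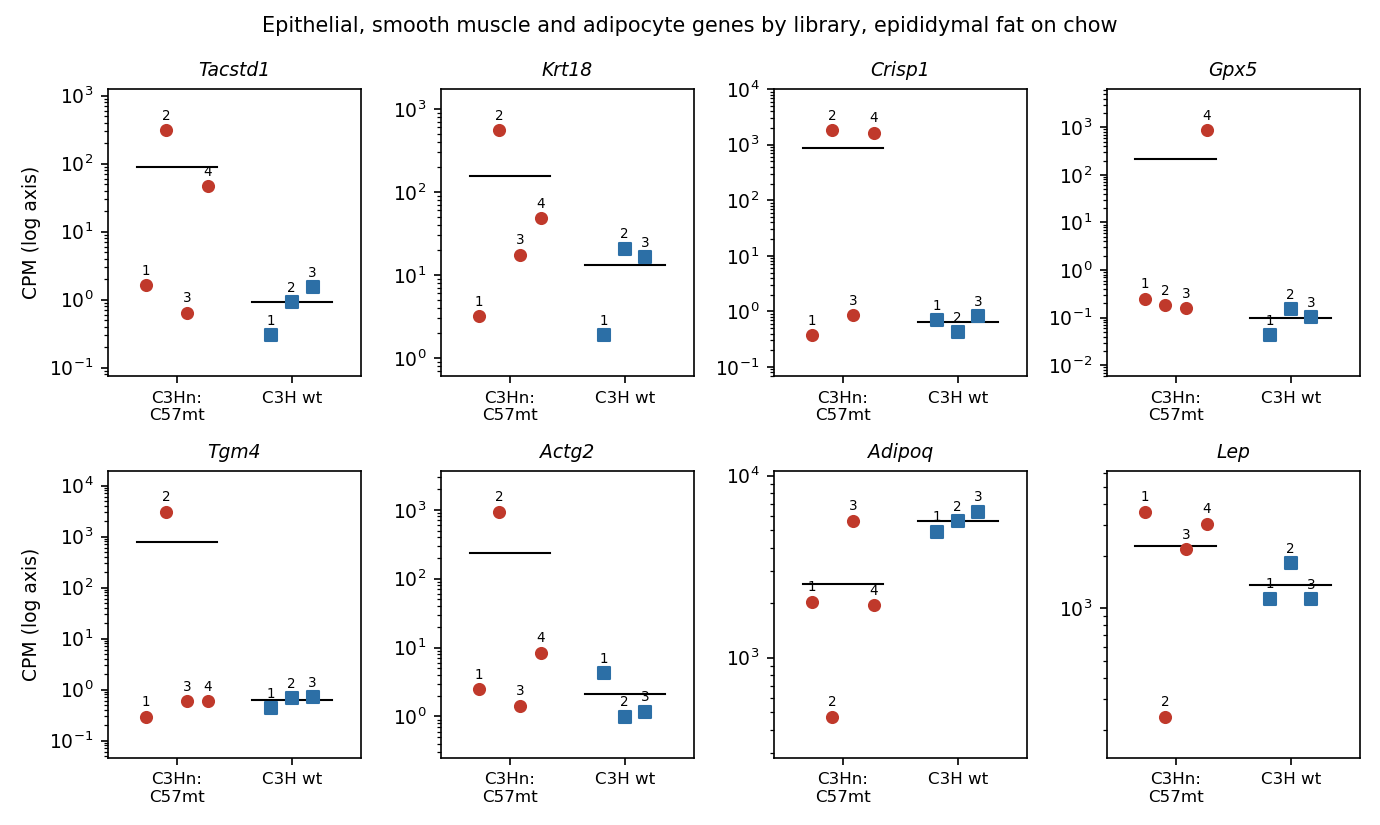
CPM of 8 genes (log axes) in the 4 C3Hn:C57mt libraries (circles) and the 3 C3H wt libraries (squares); numbers are replicates and lines are group means. Tacstd1, Krt18 and Crisp1 were high in C3Hn:C57mt replicates 2 and 4, Gpx5 in replicate 4, and Tgm4 and Actg2 in replicate 2, where Adipoq and Lep were lowest.

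Summed over whole marker lists, the 16 epithelial genes came to 48.0 to 3284 CPM in C3Hn:C57mt libraries, against 34.5 to 125 CPM in C3H wt libraries. The 9 smooth muscle genes came to 512 to 9814 CPM in C3Hn:C57mt libraries, against 586 to 892 CPM in C3H wt libraries. The 20 adipocyte identity genes came to 8556 to 55364 CPM in C3Hn:C57mt libraries, with replicate 2 lowest, against 49390 to 64148 CPM in C3H wt libraries. Adipoq, which encodes adiponectin and defines adipocytes here, was well above 0 in all 7 libraries: 2032, 473, 5656 and 1943 CPM in C3Hn:C57mt, against 4926, 5607 and 6332 CPM in C3H wt. In bulk tissue, fewer cells of a type and less RNA per cell cannot be told apart. On the first principal component of the 7 libraries, which held 61.0% of their variance, replicate 2 lay at 134.9 and the other 6 libraries between -32.4 and 8.18.

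The number of genes called between C3Hn:C57mt and C3H wt depended on the tool. Of 17687 genes tested by edgeR's quasi-likelihood test with Benjamini-Hochberg adjustment, 0 were called (0%) and the lowest adjusted p was 0.311. At an unadjusted p under 0.05 there were 2219 genes (12.5%), with 1452 estimates above 0 (8.21%) and 767 below 0 (4.34%). Replicate 2 was the highest of the 7 libraries in 1108 of the 1452 and the lowest in 473 of the 767. The CPM of all 4 C3Hn:C57mt libraries lay above all 3 C3H wt libraries for 751 genes (4.25%) and below them for 855 genes (4.83%), and replicate 2 was the highest of all in 483 of the 751. DESeq2 called 452 genes (2.56%), 406 higher and 46 lower, of which 296 had their highest value in replicate 2. limma voom called 5864 genes with sample quality weights and 0 without such weights (1417 at an unadjusted p under 0.05). The weights were 1.77, 0.131, 0.798 and 2.18 in C3Hn:C57mt replicates 1 to 4, against 0.515, 0.720 and 7.40 in C3H wt replicates 1 to 3. The part of single libraries in the 5864 calls was not tested. Without the 6 eWAT libraries with epithelial RNA, which leaves 2 C3Hn:C57mt against 3 C3H wt libraries, edgeR called 0 of 16662 genes, with 1610 at an unadjusted p under 0.05 (9.66%), while DESeq2 called 51, of which 18 were among the 452. As edgeR, the main test, called no gene, the values below are described with edgeR's estimates and without a claim of a difference. The words "below" or "above" refer to the estimate. The edgeR test gives no standard error. The SE given here is the size of the estimate over the square root of the test's F statistic.

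The 24 genes with the smallest p among those whose CPM ranges did not overlap and whose mean was at least 5 CPM in the higher group were taken as examples, 12 in each direction. DESeq2 and weighted voom each called all 24 of them, and 7 and 22 without the 6 libraries, while edgeR and unweighted voom called 0. Over all genes the first-named tools called 452 and 5864 of 17687, and 51 and 1628 of 16662 without the 6 libraries. The 24 were picked by p and range in these same libraries, so calls by other tools are not separate support. Cd276 encodes an immune checkpoint molecule of the B7 family, and lies on chromosome 9 at 58372107 to 58402939 of NCBIM37. It stood at 6.09, 6.54, 3.62 and 6.06 CPM in C3Hn:C57mt, against 1.51, 2.43 and 1.07 CPM in C3H wt. Its log2 fold change was 1.73 ± 0.37 (SE, adjusted p = 0.311 by edgeR) and was 1.503 without the 6 libraries with epithelial RNA. Tnfrsf21, a death-domain receptor of the tumour necrosis factor family, stood at 66.7, 78.9, 41.5 and 58.0 CPM in C3Hn:C57mt, against 29.5, 31.8 and 21.8 CPM in C3H wt (log2 fold change 1.14 ± 0.25). Ptprj, a receptor tyrosine phosphatase, averaged 78.5 ± 15.1 CPM in C3Hn:C57mt and 35.6 ± 11.6 CPM in C3H wt (SD, n = 4 and 3). Replicate 3 was the lowest C3Hn:C57mt library for these 3 genes, which were picked for ranges that do not overlap.

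Col6a5, a collagen VI chain, stood at 126, 68.9, 40.2 and 135 CPM in C3Hn:C57mt, against 17.7, 29.4 and 27.7 CPM in C3H wt (log2 fold change 1.89 ± 0.49). Pfkfb4, an enzyme that sets the level of the glycolytic activator fructose-2,6-bisphosphate, averaged 35.2 ± 9.31 CPM in C3Hn:C57mt and 15.9 ± 7.47 CPM in C3H wt, with a log2 fold change of 1.15 ± 0.30. For Slc8a1, the sodium-calcium exchanger, it was 1.32 ± 0.30. The remaining 6 genes with higher values rest more on replicate 2. Slco2a1, the prostaglandin transporter, stood at 481 CPM there and at 19.7 to 21.8 CPM in the other C3Hn:C57mt libraries, against 7.87 to 12.4 CPM in C3H wt libraries, so that its log2 fold change of 3.67 came to 0.98 without that library. Likewise the log2 fold change of Rab15, a small GTPase of endosome recycling, was 4.91 with and 1.36 without replicate 2, that of Tsku, a secreted leucine-rich repeat protein, 2.25 and 0.80, that of Fndc5, the precursor of irisin, 3.46 and 1.75, that of Plcl4 5.74 and 3.35, and that of Mad1l1, a spindle checkpoint protein, 0.97 and 0.49.

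Among the 12 genes with lower values, Ccng2, an unconventional cyclin known as a target of FoxO factors, had the smallest p of all genes tested. It lies on chromosome 5 at 93696283 to 93705257 of NCBIM37, and stood at 43.3, 37.3, 41.7 and 40.6 CPM in C3Hn:C57mt, against 62.4, 59.7 and 85.1 CPM in C3H wt. Its log2 fold change was -0.76 ± 0.16 (unadjusted p = 6.65e-05, adjusted p = 0.311 by edgeR) and -0.72 without the 6 libraries. Adrb3 encodes the beta-3 adrenergic receptor through which noradrenaline starts lipolysis in mouse adipocytes (chromosome 8, 28336248 to 28340060). It stood at 101, 72.2, 321 and 102 CPM in C3Hn:C57mt, against 827, 534 and 858 CPM in C3H wt, a log2 fold change of -2.31 ± 0.61, or -1.82 without the 6 libraries. Replicate 1, with low epithelial markers, lay as low as replicate 4.

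Slc43a1, a transporter of large neutral amino acids, stood at 10.02, 9.20, 27.1 and 9.07 CPM in C3Hn:C57mt, against 50.5, 43.9 and 71.2 CPM in C3H wt. For both Adrb3 and Slc43a1 replicate 3 was the C3Hn:C57mt library nearest to C3H wt. St3gal6, a sialyltransferase, averaged 7.70 ± 2.00 CPM in C3Hn:C57mt and 18.2 ± 4.53 CPM in C3H wt, and Neil2, a glycosylase of base excision repair, averaged 2.60 ± 0.788 CPM in C3Hn:C57mt and 5.66 ± 1.23 CPM in C3H wt (SD, n = 4 and 3). Ints4, a subunit of the Integrator complex, had the smallest estimate, -0.40 ± 0.10. D430015B01Rik, 4833442J19Rik and AK040027, to which no function is given here, had estimates of -2.54, -1.28 and -0.81. All 12 kept a negative estimate without replicate 2 and without the 6 libraries. This follows from their choice by separate ranges and is not separate support.

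**Figure D2:**
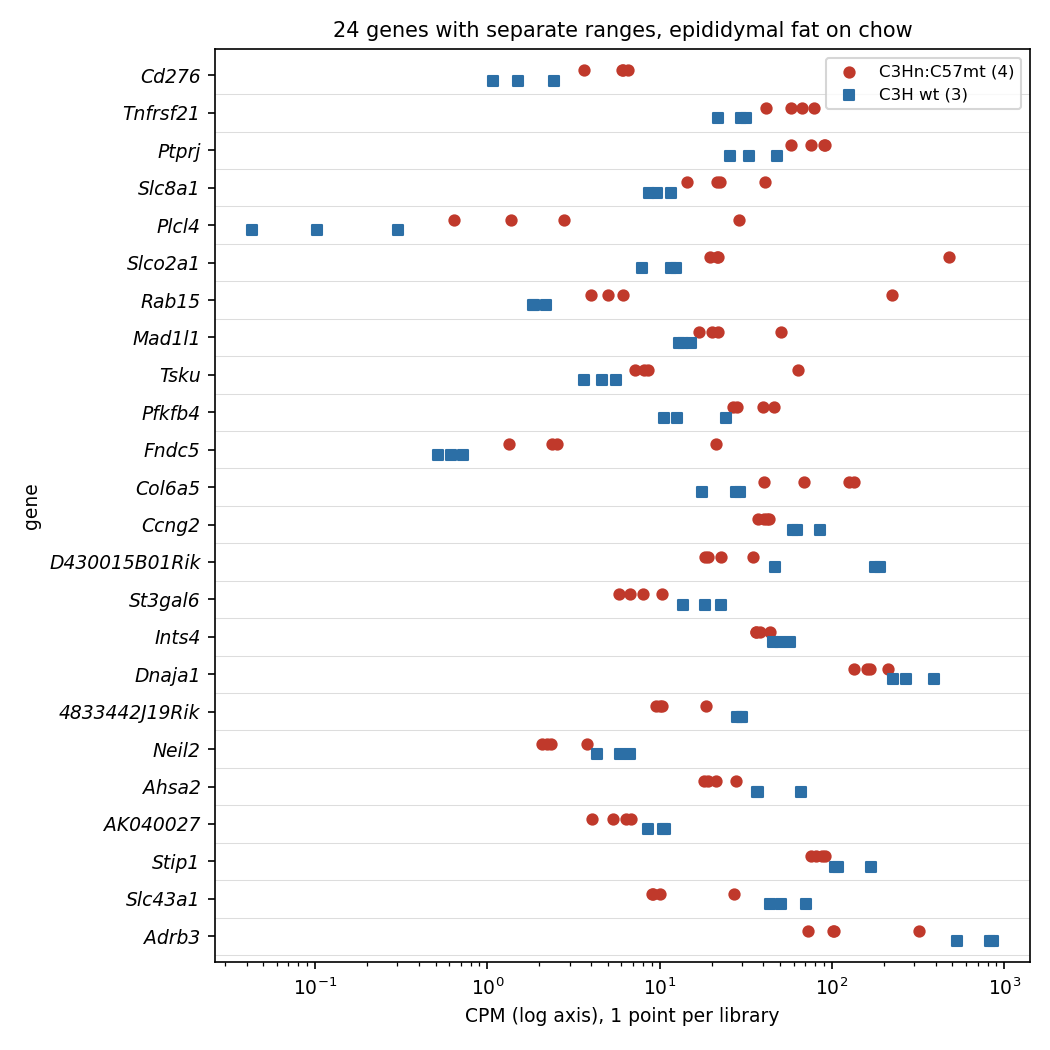
CPM (log axis) of the 24 genes in each C3Hn:C57mt (circles, 4) and C3H wt library (squares, 3). The 12 upper genes have all circles to the right of all squares and the 12 lower genes all circles to the left, with 1 C3Hn:C57mt library far from the rest for Slco2a1, Rab15, Tsku, Plcl4 and Fndc5.

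The other 3 of the 12 lower genes were chaperone genes. Dnaja1 encodes a co-chaperone of Hsp70, Stip1 the adaptor between Hsp70 and Hsp90, and Ahsa2 an activator of the Hsp90 ATPase. Such genes are textbook targets of heat shock factor, which binds heat shock elements built from inverted repeats of the letters GAA. Chordc1, which binds Hsp90, and the chaperone genes Ppid, Hspa8, Hsp90ab1 and Fkbp4 were looked at after these values were seen. Hspd1 and Hspe1, the chaperonin pair of the mitochondrial matrix, were on the stress response list. Promoter windows of RefSeq were looked up for Dnaja1, Ahsa2, Stip1, Hspd1, Hspe1 and Chordc1, and not for the other chaperone genes. The windows (GRCm38.p6, 250 bases before to 50 after the start, 5′ to 3′ on the gene's strand) were searched for GAANNTTC and TTCNNGAA, both of which read the same on either strand. These letters, in capitals, stand in the windows of the 3 genes shown here, which were chosen because they hold a match. Matches may overlap.

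Hspe1 (chr1:55087898-55088197, plus strand): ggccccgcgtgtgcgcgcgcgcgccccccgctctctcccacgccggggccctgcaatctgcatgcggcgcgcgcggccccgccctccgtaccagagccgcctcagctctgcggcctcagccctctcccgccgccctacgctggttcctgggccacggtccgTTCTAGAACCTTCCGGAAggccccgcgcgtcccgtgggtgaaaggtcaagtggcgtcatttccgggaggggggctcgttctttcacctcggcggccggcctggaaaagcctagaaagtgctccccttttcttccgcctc
Chordc1 (chr9:18292017-18292316, plus strand): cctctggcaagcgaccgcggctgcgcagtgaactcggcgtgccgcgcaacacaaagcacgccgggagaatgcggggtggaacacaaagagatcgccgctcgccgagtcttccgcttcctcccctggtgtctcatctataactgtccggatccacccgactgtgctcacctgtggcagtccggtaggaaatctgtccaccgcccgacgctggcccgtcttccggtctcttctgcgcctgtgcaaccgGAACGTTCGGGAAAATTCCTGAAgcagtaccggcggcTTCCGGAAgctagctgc
Dnaja1 (chr4:40722218-40722517, plus strand): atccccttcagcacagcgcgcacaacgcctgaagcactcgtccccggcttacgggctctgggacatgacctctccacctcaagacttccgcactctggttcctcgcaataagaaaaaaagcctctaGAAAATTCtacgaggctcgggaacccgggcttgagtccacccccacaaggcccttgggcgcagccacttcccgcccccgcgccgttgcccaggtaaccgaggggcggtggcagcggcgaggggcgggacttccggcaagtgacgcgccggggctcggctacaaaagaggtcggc

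The Hspe1 window holds 3 matches and is shared, on the opposite strand, with the start of Hspd1; the Chordc1 window holds 5 matches and the Dnaja1 window 1. Ahsa2 and Stip1 have none of these letters in their windows, nor do the other 2 windows of Dnaja1 or the other window of Hspd1. Of the 9 windows of these 6 genes 4 hold a match, and 2 of the 4 overlap each other. As the other chaperone genes were not looked up, this is not a share of chaperone genes. Of all 32851 promoter windows 15.1% hold at least 1 match, and a match is not a binding site.

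Dnaja1 stood at 159, 211, 134 and 166 CPM in C3Hn:C57mt, against 269, 226 and 391 CPM in C3H wt, with a log2 fold change of -0.82 ± 0.20 (unadjusted p = 0.000529, adjusted p = 0.311 by edgeR). Hspd1, which encodes Hsp60, stood at 296, 192, 327 and 279 CPM in C3Hn:C57mt, against 457, 362 and 560 CPM in C3H wt (-0.75 ± 0.24). The ranges do not overlap for either gene, and C3H wt replicate 3 was the highest library for both. Hspe1, its partner Hsp10, had an estimate of -0.69 ± 0.23, Ahsa2 of -1.12 ± 0.28, Stip1 of -0.60 ± 0.15 and Hsp90aa1, the inducible cytosolic Hsp90, of -0.69 ± 0.22. Chordc1 stood at 25.9, 37.1, 19.0 and 27.9 CPM in C3Hn:C57mt, against 46.1, 34.1 and 58.2 CPM in C3H wt, and its ranges overlap through replicate 2. Without the 6 libraries the estimates of Dnaja1, Chordc1 and Ahsa2 were larger in size, -1.04, -1.06 and -1.24, and those of Hspd1 and Hspe1 smaller, -0.58 and -0.59. Stip1 rests in part on C3H wt replicate 3, without which its estimate was -0.35. Ahsa2 too was highest there, at 65.8 CPM against 36.9 and 37.4 CPM in the other C3H wt libraries. With 1 library left out, the estimates smallest in size were -0.57 for Dnaja1, -0.80 for Ahsa2 and -0.46 for Hsp90aa1. For Hspd1 and Hspe1 they were -0.60 and -0.54. Of the genes looked at afterwards, Ppid, a cyclophilin, had -0.55 ± 0.16 with separate ranges. Hspa8, the constitutive Hsp70, had -0.63 ± 0.25 and Hsp90ab1, the constitutive cytosolic Hsp90, -0.41 ± 0.18, both with overlapping ranges. Fkbp4, an immunophilin that binds Hsp90, had 0.071 ± 0.51, and -0.78 without the 6 libraries. Over the whole stress response list of 24 genes, 17 estimates were below 0, with a median of -0.22 that came to -0.07 without the 6 libraries. Of the 24, 3 had an unadjusted p under 0.05 in that direction (4.34% of all genes did). Clpp, a protease of the mitochondrial matrix, was the third (-0.48 ± 0.18), and Aldh18a1, an enzyme of proline synthesis, was the 1 gene of that list in the other direction (1.24 ± 0.37, and 0.61 without replicate 2).

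The mtDNA itself is represented by 3 rows in these gene tables. Atpase6, ATP synthase subunit 6 (NCBIM37 mitochondrial genome M, 7927 to 8607), stood at 7392, 11065, 7936 and 7872 CPM in C3Hn:C57mt, against 14143, 10827 and 18368 CPM in C3H wt. mt-Nd4, complex I subunit 4 (10167 to 11544), stood at 4870, 6434, 5612 and 5662 CPM in C3Hn:C57mt, against 10483, 5732 and 12175 CPM in C3H wt. Cox2, cytochrome c oxidase subunit II (7013 to 7696), stood at 7246, 9773, 7468 and 7791 CPM in C3Hn:C57mt, against 11148, 9454 and 15062 CPM in C3H wt. The groups overlap in all 3, through C3Hn:C57mt replicate 2 and C3H wt replicate 2. Log2 fold changes were -0.75 ± 0.34, -0.75 ± 0.34 and -0.56 ± 0.29, with adjusted p values of 0.368, 0.373 and 0.420 by edgeR. Leaving out the 6 libraries gave -0.94, -0.87 and -0.71, and Cox2 was at -0.36 without C3H wt replicate 3. Nuclear copies of mitochondrial genes could share reads with these rows.

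Nuclear genes of the respiratory chain lay below 0 almost without exception. All 37 complex I subunits tested had negative estimates, against 7986 of all 17687 genes, with a median log2 fold change of -0.44, against 0.05 over all genes tested. Of the 37, edgeR called 0, 13 had an unadjusted p under 0.05 (4.34% of all genes did in this direction) and 7 had separate lower ranges (4.83% of all genes). The median of the complex I subunits was -0.48, -0.65, -0.16 and -0.52 in C3Hn:C57mt replicates 1 to 4 relative to the C3H wt mean, on the log2(CPM + 0.5) scale, against -0.26, 0.12 and 0.17 in C3H wt replicates 1 to 3. C3Hn:C57mt replicate 3 and C3H wt replicate 1 therefore overlap. Ndufa10, a complex I subunit, stood at 120, 95.4, 143 and 116 CPM in C3Hn:C57mt, against 163, 157 and 204 CPM in C3H wt (-0.56 ± 0.22). Complexes II to V had 38 of 41 estimates below 0 and a median of -0.42, with Sdha of complex II at -0.48 ± 0.23 and Cox8a of complex IV at -0.60 ± 0.25. By library the groups overlap in the median of this list too. All 10 complex I assembly factors lay below 0 (median -0.42), among them Nubpl, which delivers iron-sulfur clusters, at -0.67 ± 0.24.

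Proteins of the mitochondrial ribosome, which translates the mtDNA, had 74 of 76 estimates below 0 and a median of -0.32. Of the 76, 18 had an unadjusted p under 0.05 in that direction (4.34% of all genes) and 9 had separate lower ranges (4.83%). The groups overlap by library. On the log2 scale used for complex I this list's median was -0.28, -0.54, -0.12 and -0.36 in C3Hn:C57mt replicates 1 to 4, against -0.27, 0.17 and 0.11 in C3H wt replicates 1 to 3. Mrpl45 stood at 35.6, 30.1, 43.5 and 37.1 CPM in C3Hn:C57mt, against 49.4, 55.8 and 59.5 CPM in C3H wt, the lowest unadjusted p of that list (0.00367). Of 30 genes of mtDNA maintenance and biogenesis, 25 were below 0 with a median of -0.11; Tfb2m, a mitochondrial transcription factor, had an estimate of -0.50 ± 0.17, Polg, the mtDNA polymerase, of -0.41 ± 0.17, and Tfam, which packages mtDNA, of -0.087 ± 0.24. For the TCA cycle 20 of 21 and for fatty acid oxidation 20 of 23 estimates lay below 0, with medians of -0.45 and -0.43. By library the groups overlap in the medians of both lists. Ehhadh, the peroxisomal bifunctional enzyme, was at -0.84 ± 0.33. Nnt, the transhydrogenase that is defective in the C57BL/6J nucleus and should be intact in both groups here, stood at 18.1, 46.7, 29.2 and 25.7 CPM in C3Hn:C57mt, against 28.96, 31.7 and 30.2 CPM in C3H wt (-0.02 ± 0.22).

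The medians of 6 of these lists stood closer to 0 when libraries with epithelial RNA were left out. Without replicate 2 they were -0.35 (complex I assembly), -0.38 (complex I), -0.36 (complexes II to V), -0.26 (mitochondrial ribosome), -0.33 (TCA cycle) and -0.31 (fatty acid oxidation), and without the 6 libraries -0.31, -0.35, -0.33, -0.23, -0.30 and -0.28, against -0.036 over all genes. The median of mtDNA maintenance and biogenesis moved away from 0, to -0.21 without replicate 2 and -0.20 without the 6 libraries, and that of the 3 mtDNA rows was -0.75 with all libraries, -0.81 without replicate 2 and -0.87 without the 6. The adipocyte identity list had a median of -0.59 with all libraries, -0.30 without replicate 2 and -0.21 without the 6 libraries. The part of adipocyte content in the mitochondrial values was not tested.

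**Figure D3:**
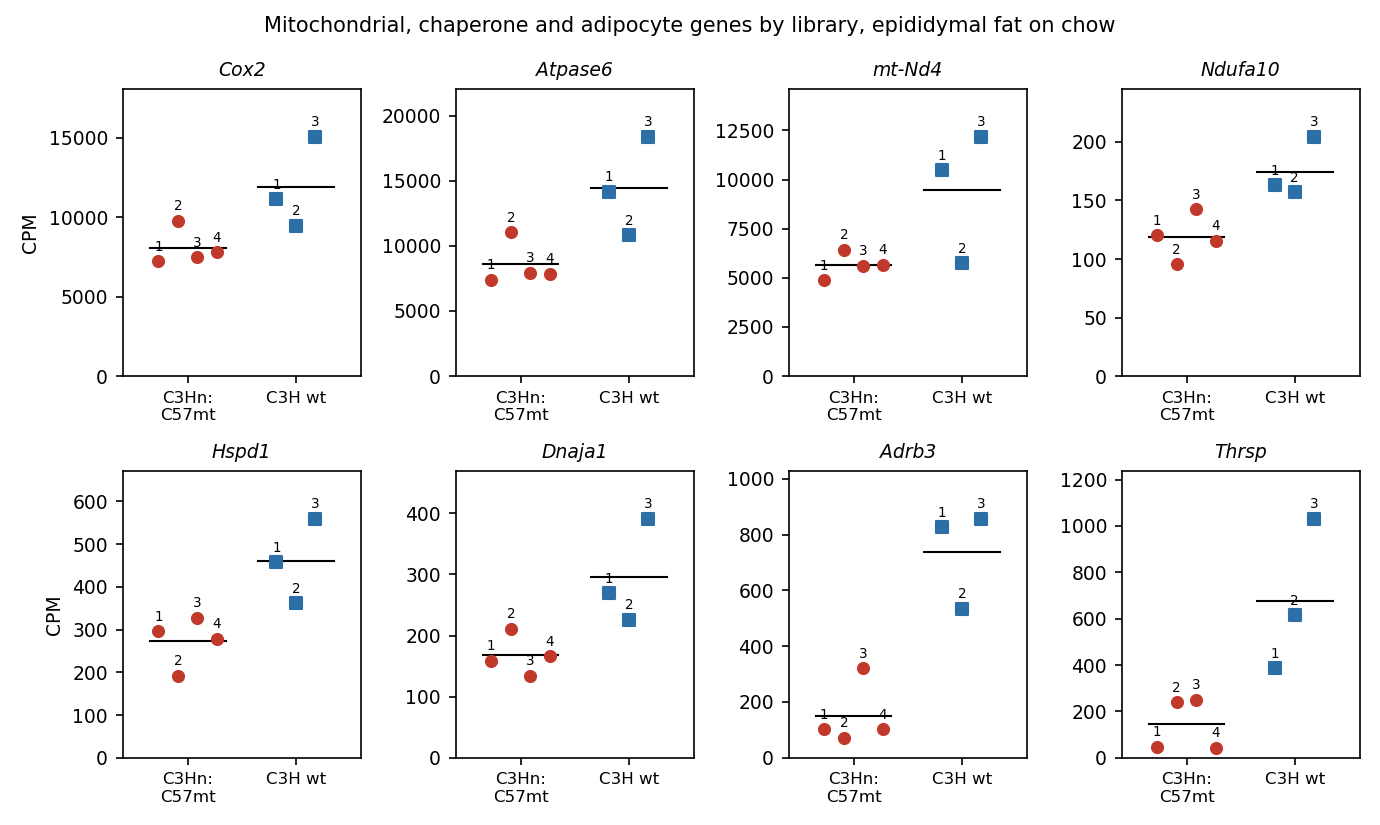
CPM (linear axes from 0) of 8 genes in the 4 C3Hn:C57mt libraries (circles) and the 3 C3H wt libraries (squares), with replicate numbers and group means. Cox2, Atpase6 and mt-Nd4 overlap between the groups, while Ndufa10, Hspd1, Dnaja1, Adrb3 and Thrsp do not.

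Genes of the adipocyte had lower values in C3Hn:C57mt, in part through replicate 2. Of 20 adipocyte identity genes 18 had negative estimates and 3 an unadjusted p under 0.05 (4.34% of all genes did in this direction). These 3 were Adrb3, Cfd, the adipokine complement factor D (-1.52 ± 0.63), and Klf15, a transcription factor of adipogenesis (-0.81 ± 0.32, and -0.46 without C3H wt replicate 1). Cfd stood at 1086, 811, 4398 and 978 CPM in C3Hn:C57mt, against 4311, 5037 and 6330 CPM in C3H wt. Here too replicate 3 lay within the C3H wt range, as it did for Adipoq, whose log2 fold change was -1.15 ± 0.60. Without replicate 3 the estimates were -2.46 for Cfd and -1.94 for Adipoq. Slc2a4, the insulin-responsive glucose transporter, had an estimate of -0.97 ± 0.50. Retn, encoding resistin, stood at 386, 145, 738 and 321 CPM in C3Hn:C57mt, against 878, 1122 and 1482 CPM in C3H wt, with separate ranges and an estimate of -1.55 ± 0.63. Vegfa, the angiogenic growth factor, had -1.04 ± 0.36.

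Lep, encoding leptin, had a positive estimate. It stood at 3587, 238, 2183 and 3066 CPM in C3Hn:C57mt, against 1136, 1818 and 1132 CPM in C3H wt. The 3 libraries other than replicate 2 lay above all C3H wt libraries, and the estimate was 0.74 ± 0.71 with all libraries and 1.11 without replicate 2 (adjusted p = 0.694 with all libraries, by edgeR). Over lipolysis and storage 22 of 24 estimates lay below 0, with a median of -0.57 that came to -0.13 without the 6 libraries. Besides Adrb3 they include Adrb1, the beta-1 receptor, at 0.501, 0.406, 1.28 and 1.09 CPM in C3Hn:C57mt, against 6.72, 0.608 and 4.81 CPM in C3H wt, where C3H wt replicate 2 lay within the C3Hn:C57mt range. Pde3b, which breaks down cAMP under insulin, had -1.05 ± 0.47.

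De novo lipogenesis had 15 of 19 estimates below 0, a median of -0.47 and 6 genes with separate lower ranges (4.83% of all genes). Thrsp, the lipogenic regulator Spot 14, stood at 47.7, 239, 251 and 43.7 CPM in C3Hn:C57mt, against 386, 614 and 1032 CPM in C3H wt (-2.22 ± 0.71), and without the 6 libraries the estimate was -2.19. Acaca, which makes malonyl-CoA, stood at 193, 208, 235 and 162 CPM in C3Hn:C57mt, against 583, 353 and 788 CPM in C3H wt (-1.53 ± 0.64). Acly, which makes cytosolic acetyl-CoA from citrate, had -0.93 ± 0.37, and -0.52 without C3H wt replicate 3. Fads2, a desaturase, was the 1 gene of the list with an unadjusted p under 0.05 above 0 (2.82 ± 1.25), with 161 CPM in replicate 2 and 37.6 CPM in replicate 4 and 7.64 and 8.67 CPM in the other 2 C3Hn:C57mt libraries, against 7.14 to 7.92 CPM in C3H wt libraries. Without the 6 libraries its estimate was 0.077.

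Cholesterol genes lay above 0 in 14 of 21 cases, with a median of 0.31. An unadjusted p under 0.05 in that direction was found for 5 of the 21 (8.21% of all genes), and separate higher ranges for 5 (4.25%). On the log2 scale used above, the list's median in C3Hn:C57mt replicate 3 (0.040) lay below those in C3H wt replicates 2 and 3 (0.16 and 0.10). Stard4, a cholesterol carrier, stood at 3.09, 6.45, 2.499 and 4.72 CPM in C3Hn:C57mt, against 1.90, 2.35 and 2.20 CPM in C3H wt (0.96 ± 0.39). Its ranges do not overlap, replicates 2 and 4 were its highest libraries, and without the 6 libraries the estimate was 0.36. Of 17 thermogenic genes tested 14 estimates lay above 0, with a median of 1.35 that came to 0.57 without replicate 2 and 0.24 without the 6 libraries, where 8 of 16 lay below 0. Dio2, the deiodinase that makes active thyroid hormone, stood at 8.31, 6.94, 1.12 and 4.80 CPM in C3Hn:C57mt, against 1.16, 1.10 and 1.02 CPM in C3H wt (2.27 ± 0.75), and replicate 3 lay within the C3H wt range. Ucp1, the uncoupling protein of brown fat, stood at 37.7, 221, 9.68 and 57.7 CPM in C3Hn:C57mt, against 26.6, 1.14 and 5.98 CPM in C3H wt, with overlapping ranges. Of 19 insulin signalling genes 15 lay below 0, and Ptpn1, a phosphatase that acts on the insulin receptor, above it (0.49 ± 0.18).

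Immune, matrix and vessel genes varied between libraries of both groups. The 31 macrophage genes summed to 9860, 1268, 7603 and 8352 CPM in C3Hn:C57mt, against 1825, 9209 and 3694 CPM in C3H wt, so both groups span the range. The median estimate of this list was 0.59, and 0.98 without the 6 libraries; Ccr2, a chemokine receptor of monocytes, had 1.48 ± 0.58 and Emr1, the F4/80 antigen of macrophages, 0.42 ± 0.62. Without C3H wt replicate 2 these were 2.42 and 1.04, and without C3H wt replicate 1 Emr1 was at 0.066. The 10 MHC class II genes, with a median of 0.52, summed to 4735, 1078, 2788 and 4022 CPM in C3Hn:C57mt, against 842, 4036 and 1665 CPM in C3H wt. Lymphocyte genes summed to 31.4 to 67.4 CPM in C3Hn:C57mt, against 16.7 to 81.8 CPM in C3H wt. Interferon-stimulated genes had a median of -0.02, and granulocyte and mast cell genes of -0.03.

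The extracellular matrix list had 27 of 31 estimates above 0 and a median of 0.46. Col1a1, a chain of type I collagen, stood at 1375, 303, 620 and 1198 CPM in C3Hn:C57mt, against 263, 403 and 256 CPM in C3H wt, and its partner Col1a2 had 0.99 ± 0.31. Replicate 2 was the 1 C3Hn:C57mt library within the C3H wt range for Col1a1, and its log2 fold change was 1.51 ± 0.41 with it and 1.79 without it. Cell cycle genes had 24 of 24 estimates above 0 and a median of 0.77, with Rrm2, a subunit of ribonucleotide reductase, at 1.27 ± 0.44. Of the 24, 5 had an unadjusted p under 0.05 in that direction (8.21% of all genes) and 0 had separate higher ranges (4.25%). By library this list's median was 1.45, -0.39, 0.38 and 1.08 in C3Hn:C57mt replicates 1 to 4, on the log2 scale used above. It was -0.41, 0.59 and -0.17 in C3H wt replicates 1 to 3, so the groups overlap. The 18 endothelial genes had 17 estimates below 0 and a median of -0.68, or -0.33 without the 6 libraries. Cldn5, a tight junction protein of endothelium, stood at 91.8, 37.5, 140 and 89.4 CPM in C3Hn:C57mt, against 217, 313 and 265 CPM in C3H wt (-1.56 ± 0.45), and Gpihbp1, which anchors lipoprotein lipase to capillaries, had -1.38 ± 0.46.

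C3H wt replicate 1 stood apart in a few lists. It also had the most rRNA reads, 5.56% against 1.50% to 2.33% in the other 6 libraries, the lowest share of reads on the transcriptome (80.5%) and the shortest mean insert (151.8 bases); the part of these in its values was not tested. Per2, a repressor of the circadian clock, stood at 12.1, 11.4, 10.3 and 13.6 CPM in C3Hn:C57mt, against 59.6, 7.14 and 15.1 CPM in C3H wt, so its estimate of -1.20 came to 0.086 without that library. The median of 18 clock genes was 0.05 to 0.36 in the C3Hn:C57mt libraries on the log2 scale used above, against 1.29, -0.60 and -0.33 in C3H wt replicates 1 to 3. The 22 immediate early genes had a median of 0.04, the 28 antioxidant genes 0.06, the 5 erythroid genes 0.32 and the 12 mesothelial genes -0.62. The 16 skeletal muscle genes (2.72), the 9 smooth muscle genes (2.59), the 16 epithelial genes (5.68) and the 17 epididymal genes tested (9.03) had the highest medians of all lists; without the 6 libraries these were 0.49, -0.21, 0.50 and 0.

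**Figure D4:**
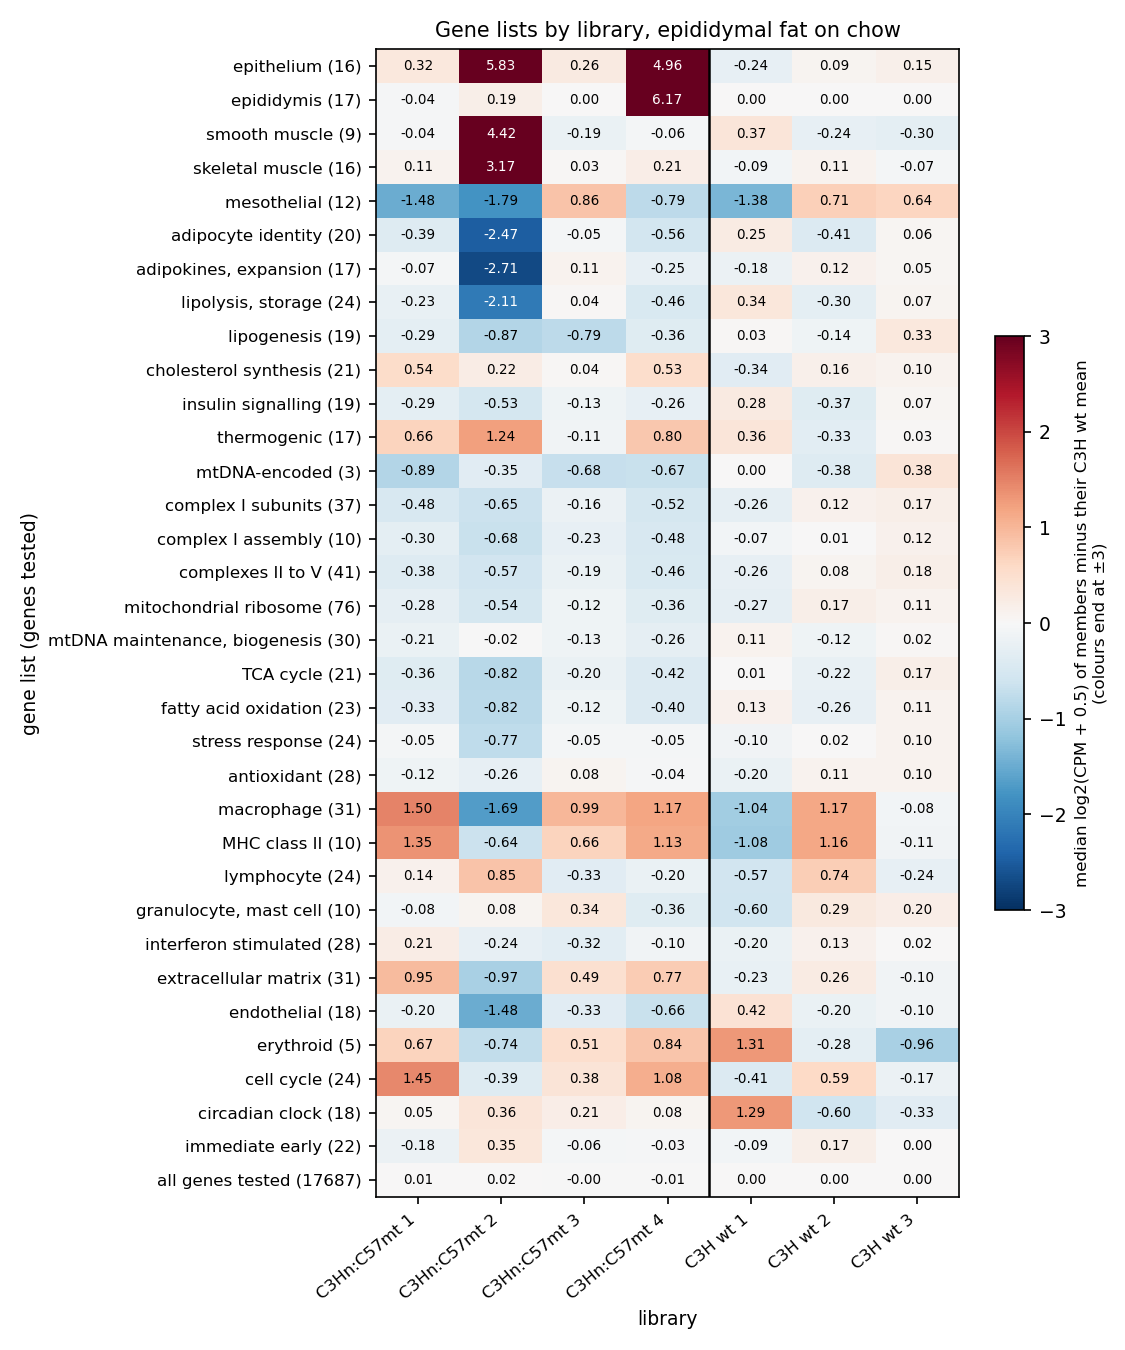
Median over the genes of each list of log2(CPM + 0.5) minus the gene's C3H wt mean, by library, with C3Hn:C57mt left and C3H wt right of the line; numbers of genes tested in brackets. C3Hn:C57mt replicate 2 is high for epithelium (5.83) and smooth muscle (4.42) and low for adipocyte identity (-2.47) and macrophage (-1.69) genes, and the complex I row is negative in all 4 C3Hn:C57mt libraries and in C3H wt replicate 1.

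Whether the differences were particular to this nucleus or diet was tested by interaction. The mtDNA contrast in the C3H nucleus minus that in the C57 nucleus (C57 wt minus C57n:C3Hmt) called 0 of 17687 genes by edgeR (lowest adjusted p 0.172, 2891 genes at an unadjusted p under 0.05), and 620 by DESeq2. Of the 8 libraries with a C57 nucleus 3 met the mark for epithelial RNA. C57 wt chow replicate 1 stood at 16.3 CPM for Tacstd1, 17.4 CPM for Krt18 and 10.2 CPM for Crisp1. It missed the mark on Krt18, and so stayed in when the 6 were left out. Without the 6 marked libraries edgeR again called 0, with 924 genes at an unadjusted p under 0.05. The chow contrast minus the HFD contrast called 0 genes by edgeR (lowest adjusted p 0.508, 1247 at an unadjusted p under 0.05) and 371 by DESeq2. C57 wt minus C57n:C3Hmt by itself called 0 genes (0%), with separate ranges for 236 higher (1.33%) and 441 lower genes (2.49%). Medians in that contrast were -0.05 for complex I, -0.12 for the mitochondrial ribosome and 0.31 for adipocyte identity.

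On HFD, in other animals and with other leading codes in the titles, C3Hn:C57mt minus C3H wt called 2 of 17687 genes in eWAT (0.0113%). These were Txnrd1, thioredoxin reductase (1.21 ± 0.18), and Gnal, a G protein alpha subunit (3.67 ± 0.56), both at an adjusted p of 0.0096 by edgeR. On chow Gnal stood at 4.76, 2.39, 2.45 and 7.52 CPM in C3Hn:C57mt, against 1.29, 1.18 and 1.02 CPM in C3H wt (1.87 ± 0.57, adjusted p = 0.311), and Txnrd1 had 0.30 ± 0.18. Of the 855 genes with separate lower ranges on chow, 181 had them on HFD as well, 21.2% of the chow and 13.8% of the 1315 HFD genes (7.43% of those tested). For the 751 with separate higher ranges the shared number was 123, 16.4% of the chow and 10% of the 1228 HFD genes (6.94%). Of the 24 genes described above, 8 of the 12 higher and 7 of the 12 lower ones had separate ranges in the same direction on HFD, and none in the opposite one.

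Adrb3 stood on HFD at 55.3, 28.1 and 23.5 CPM in C3Hn:C57mt, against 282, 181, 117 and 293 CPM in C3H wt (-2.61 ± 0.66, adjusted p = 0.127 by edgeR). Cd276 stood at 6.75, 11.3 and 16.3 CPM in C3Hn:C57mt, against 3.25, 5.82, 4.69 and 4.79 CPM in C3H wt. Col6a5 and Ptprj had 1.14 and 0.91, while the chaperone genes Dnaja1, Ahsa2 and Stip1 had -0.17, -0.098 and 0.036. The complex I median on HFD was -0.65, that of complexes II to V -0.52, of the mitochondrial ribosome -0.43 and of adipocyte identity -0.61. Of the mitochondrial genes named above, Ndufa10, Cox8a and Mrpl45 were highest in C3H wt HFD replicate 3 (129, 442 and 48.7 CPM). The other C3H wt HFD libraries held 79.9 to 100, 205 to 273 and 31.1 to 40.6 CPM. The C3Hn:C57mt HFD libraries held 73.2 to 87.1, 144 to 181 and 30.4 to 33.1 CPM. Sdha was highest in C3H wt HFD replicate 4 (407 CPM, against 402 CPM in replicate 3). The part of replicate 3 in the HFD medians was not tested. C3H wt replicate 1 was the 1 HFD library of this nucleus with epithelial RNA. The macrophage genes summed there to 10905, 19989 and 26294 CPM in C3Hn:C57mt, against 2685, 11162, 17429 and 8050 CPM in C3H wt, and the adipocyte identity genes to 26548 to 32066 CPM in C3Hn:C57mt, against 32586 to 53327 CPM in C3H wt; the part of these in the HFD values was not tested.

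In iWAT on chow (4 libraries each, of which 2 animals per genotype also gave the eWAT libraries) 0 of 16884 genes were called, with 432 at an unadjusted p under 0.05 by edgeR. Separate ranges were found for 189 higher (1.12%) and 342 lower genes (2.03%). Of the 24 genes 2 had them in the same direction, Col6a5 and Ints4. Adrb3 had -0.99 ± 0.48 in iWAT and Slc43a1 -1.05 ± 0.44. The complex I median was -0.12 there. In muscle (4 libraries each, of which 2 C3Hn:C57mt animals and 1 C3H wt animal also gave the eWAT libraries) 1 of 13735 genes was called (0.00728%), AK033525, at -5.06 ± 0.72 and an adjusted p of 0.0349 by edgeR. Without C3H wt muscle replicate 1 or C3Hn:C57mt muscle replicate 2 or 3 the count was 0, without C3Hn:C57mt muscle replicate 1 the 1 gene called had a positive estimate and so was another gene, and without C3H wt muscle replicate 4 the count was 2. The complex I median in muscle was -0.02, and 1 of the 24 genes, AK040027, had separate ranges in the same direction. Over all genes tested in muscle, 200 had separate higher ranges (1.46%) and 270 separate lower ones (1.97%). Over eWAT on both diets, iWAT and muscle, 1 of 13340 genes tested in all tissues had separate ranges in the same direction each time: Ddo, D-aspartate oxidase, at 3.88, 4.69, 9.84 and 4.97 CPM in chow eWAT of C3Hn:C57mt, against 10.5, 9.99 and 14.8 CPM in C3H wt (-1.01 ± 0.32, adjusted p = 0.312 by edgeR). Some of these animals are shared between tissues, so the comparisons are not independent. Ddo was singled out after its values were seen, and its estimates were -0.61 in eWAT on HFD, -0.44 in iWAT and -0.21 in muscle.

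**Figure D5:**
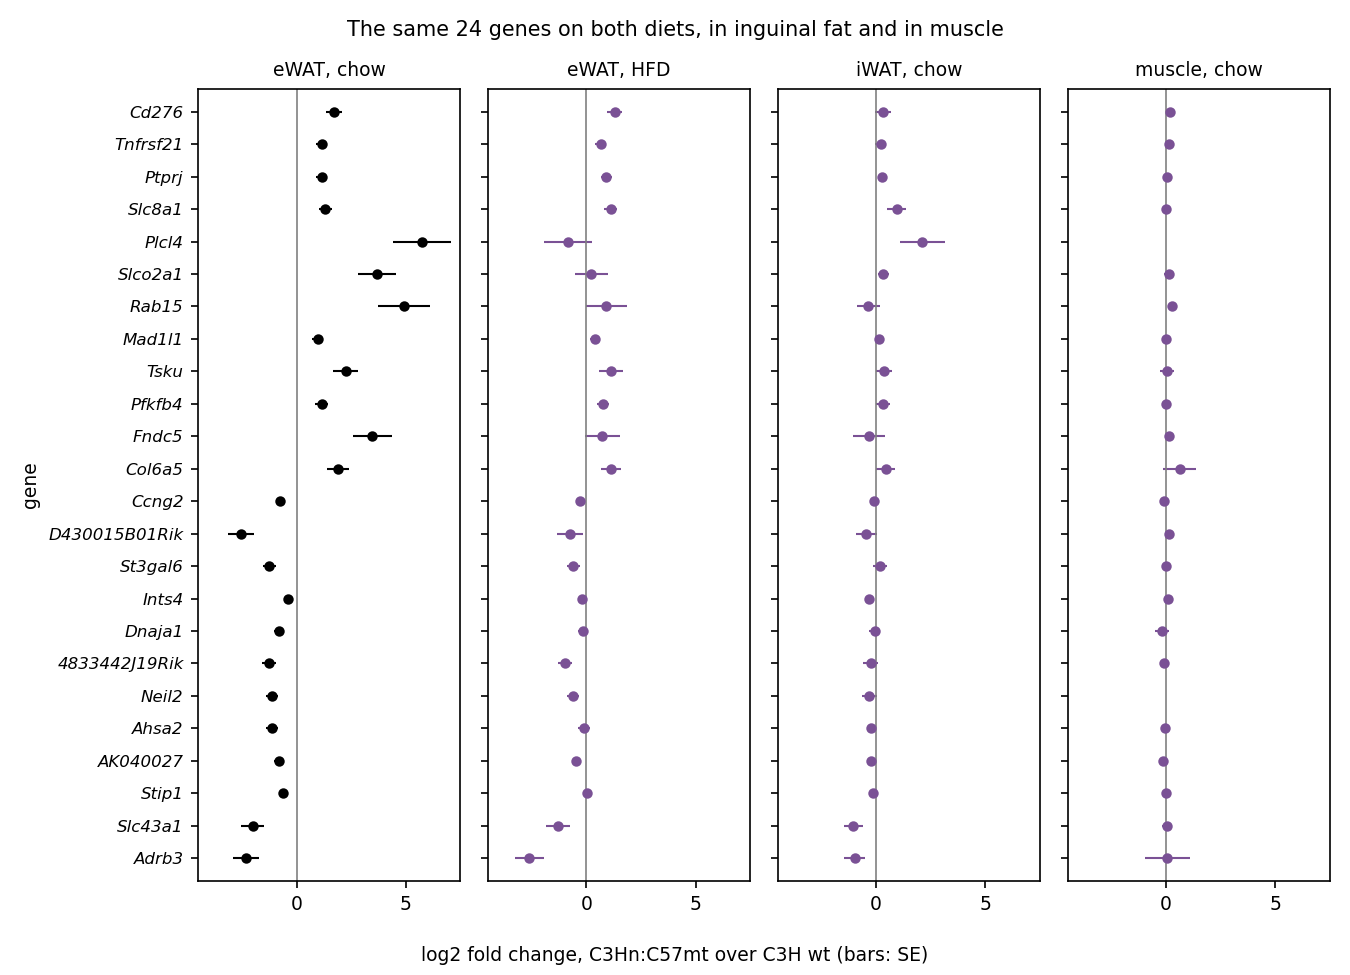
Log2 fold change, C3Hn:C57mt over C3H wt, with standard errors, of the 24 genes in eWAT on chow, eWAT on HFD, iWAT on chow and muscle on chow, gene order as in the plot of CPM by library. Adrb3 and Slc43a1 are below 0 in all 3 fat panels, Dnaja1, Ahsa2 and Stip1 lie between -0.23 and 0.036 outside eWAT on chow, and muscle values run from -0.17 (Dnaja1) to 0.64 (Col6a5).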

How the data were processed

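RNA-seq of 4 genotypes and 3 tissues was available as whole-series tables. Per the submitters' processing notes, the deposited expected counts per gene come from RSEM against mm9, and DESeq2 1.10.1 is also named; which mapper and annotation were used is not given in the sources read for this work. The authors' deposited quality tables give reads as percent, base differences as a fraction, and genes detected as a count; mean insert length is a deposited signal.

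Expected counts were rounded. The 21625 genes in both gene tables were filtered (edgeR 4.0.16 filterByExpr, minimum count 10, total 15). The filter's setting of 70% acts only on large groups, and the groups here hold 3 or 4 libraries. Libraries of any group could meet the filter. The genes kept were fitted over all 29 eWAT libraries in 8 groups with TMM and the quasi-likelihood test in R 4.3.3. Benjamini-Hochberg adjustment was at 0.05. iWAT (30 libraries) and muscle (16) were fitted separately. CPM use TMM library sizes. The fits were tested on simulated data with the same spread for every gene and no epithelial RNA. Such data cannot show how the fits handle the marked libraries. Named genes were the 12 with the smallest p in each direction with separate ranges and at least 5 CPM in the higher group, up to 4 per list, and 11 further genes such as Tacstd1, Krt18 and Lep. The genes and 33 lists were chosen with earlier results of these data known. Alternatives were RLE scaling, other filters, DESeq2 1.42.0, limma 3.58.1 voom, other library sets and an epithelial covariate. Nothing but the animal numbers shows that the libraries are separate animals. Positions are from GENCODE on NCBIM37 and promoters from RefSeq on GRCm38.p6. Some results are not reported here.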

Additional observations from a re-analysis of the deposited data

Results flagged for a closer look

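In 18 of 141 results examined, 1 of the 4 C3Hn:C57mt libraries lay far from the other 3, by the gap to the nearest library as a share of the group's range on the log2 scale, given below and set against Dixon's critical value; chance alone marks about 1 group in 20. Replicate 2 was the distant one for Slco2a1 (0.969), Rab15 (0.894), Tsku (0.921), Des (0.943), Mylk (0.917), the summed smooth muscle genes (0.928), the summed macrophage genes (0.873) and the summed erythroid genes (0.859). Replicate 4 was the distant one for the epididymal genes Gpx5 (0.963) and Adam7 (0.902). Replicate 3 was the distant one for Cd276 (0.871), where it was lowest, and for 4833442J19Rik (0.888), Slc43a1 (0.909) and Slc2a4 (0.873), where it was highest. It was also highest for Mterfd2 (0.874), while replicate 2 was lowest for Dlst (0.852) and Mpeg1 (0.851) and highest for Acot11 (0.862).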

How the results depend on the processing

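No paired analysis was possible because, by the animal numbers in the titles, no animal is in both groups. With RLE scaling, no filter, a stricter filter, the 15 chow libraries, the 7 libraries alone, the epithelial covariate, or without the 6 libraries with epithelial RNA, edgeR called 0 genes. DESeq2 called 452 genes, 620 for the difference between nuclear genomes and 371 for that between diets. limma voom with sample quality weights called 5864, 10036 and 247. Among alternatives chosen after seeing the data, DESeq2 without the 6 libraries called 51, voom with weights without them 1628, and edgeR with robust estimation and voom without weights 0; the cause was not tested. Leaving out 1 library gave 0 genes each time for the comparison and 0 to 1 for the difference between diets (1 without C3Hn:C57mt HFD replicate 1), and 0 to 2 in muscle, with 0 without C3H wt replicate 1 or C3Hn:C57mt replicate 2 or 3 and 2 without C3H wt replicate 4.

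Of 122 named genes 113 kept their direction under every alternative run. Without the 6 libraries the log2 fold change was -0.35 for Krt18, -0.41 for Upk1b, -0.40 for Krt19 and -0.031 for Mylk. DESeq2 without them gave -0.33, -0.39, -0.38 and -0.016, voom with weights -1.13, -1.59, -1.13 and -0.18 (Tacstd1 -0.33, Gzmb -0.19), and voom without weights -0.33, -0.84, -0.39 and -0.037. With all libraries, weighted voom gave -1.75 for Upk1b, -0.94 for Krt19, -0.0081 for Mylk and -0.32 for Gzmb, and the covariate -0.20 for Krt18. Nnt was at 0.0021 with RLE, 0.025 with the stricter filter, 0.0017 with DESeq2 and 0.012 in the 7 libraries alone. Leaving out 1 library gave ranges of -0.31 to 0.16 for Nnt, -0.038 to 2.98 for Des, -0.014 to 2.61 for Mylk, -0.68 to 3.48 for Upk1b, -0.42 to 3.32 for Krt19 and -1.68 to 0.086 for Per2. The depth of 19.3 to 28.8 M counts per library limits genes at a few CPM, and 4 against 3 animals, with 2 of the 4 holding epithelial RNA, limit the rest.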
